A study of Mus musculus with 8 samples.

Results

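The 10 genes described here encode AP-1 subunits and other immediate early proteins: Fos, Fosb, Fosl1, Jun, Junb, Jund, Egr1, Ier2, Ier3 and Myc. They were taken by name from the 20432 genes and loci that 2 tables of RNA-seq values have in common, and all 10 were found in both. The samples came from MC38, a mouse line derived from a colon adenocarcinoma. Wild type control cells and cells in which DENR had been knocked out (DENR KO) were each sequenced untreated and after 4 h with 20 ng/ml interferon gamma (IFNγ), with 2 samples in each of the 4 groups and 8 in all. DENR is a factor that helps ribosomes start again after they have translated a short upstream reading frame. The study asked what its loss does to the response to IFNγ. Knockout lines were made with lentivirus carrying Cas9 and sgRNAs. The study lists a control sgRNA as well, and for its killing assay it made the control MC38 line in the same way. Its account of the RNA-seq does not say whether the control cells carried that sgRNA. The sources used here also do not say whether the 2 DENR KO samples of a group were different sgRNAs, clones or cultures. P-values therefore measure only the spread between these samples, which may be technical.

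AP-1 is a family of dimers that bind DNA through a basic leucine zipper. A Jun protein pairs with a Fos protein, with another Jun protein or with a related partner, and the composition of the dimer sets which target genes respond and how strongly. Many of these genes are immediate early genes, which growth factors and cytokines switch on within minutes without new protein synthesis, mostly through MAP kinases and serum response factor, and whose mRNAs are often short-lived. Egr1 is a zinc finger factor of this class, Ier2 and Ier3 are small immediate early proteins, and Myc is the basic helix-loop-helix factor that drives growth genes together with Max. IFNγ itself acts mainly through a receptor bound to JAK kinases.

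A feature looked for in each member was AU-rich sequence in the 3′ UTR, through which proteins such as Zfp36 mark an mRNA for decay. In the longest 3′ UTR that GENCODE M21 annotates for each gene on GRCm38, the pentamer ATTTA (read on the mRNA strand only) was absent from Ier2 and present in the others. Its density was 8.16 per 1000 bases in Ier3, 4.91 in Fos, 4.29 in Myc, 4.12 in Junb and 3.24 in Jun, and it was above the median of 20968 genes (1.23 per 1000 bases) in 8 of the 10. The nonamer TTATTTATT, which contains the pentamer, was found in Fos alone of the 10 and in 7.61% of all genes. The stretches shown here are 30 bases of the 3′ UTR of the 5 genes with the highest density, 5′ to 3′ on the strand of the mRNA, with each ATTTA in capitals.
Fos, chr12:85477098-85477127, plus strand: tattgtgttttcaATTTATTTAttaagatg
Jun, chr4:95049210-95049239, minus strand: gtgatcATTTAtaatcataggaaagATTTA
Junb, chr8:84977127-84977156, minus strand: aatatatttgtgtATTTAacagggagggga
Ier3, chr17:35822480-35822509, plus strand: gtgtctaattaatATTTAtgtATTTAtgta
Myc, chr15:61990134-61990163, plus strand: ttaacagatttgtATTTAattgttttttta
A match to these letters is a description of the annotated transcript, and mRNA decay was not measured.

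RefSeq promoter windows of GRCm38.p6, from 250 bases before to 50 bases after the annotated start, were at hand for 6 of the 10 genes (Fos, Fosb, Jun, Junb, Jund and Ier3). Motifs were searched on both strands. The letters of a TATA box (TATAAA, in 13.6% of 32851 windows) were found in Fos and Junb. Those of a GC box (GGGCGG, in 35.7% of windows) were in Fos, Jun, Ier3 and, at 3 places, Fosb. The TATAAA of Fos began at position −33 relative to the annotated start, and that of Junb at the start itself. Junb and Jun were the 2 genes with a DENR KO effect called in the main tests below, neither of them in every alternative. The 30 bases around their matches read 5′ to 3′ along each gene as follows, with the match in capitals.
Junb TATA box, chr8:84978731-84978760, minus strand: tgacaaattcagTATAAAagcttggggctg
Jun GC box, chr4:95052294-95052323, minus strand: cgacgggtgggcCCGCCCccctgagaacga
In none of the 6 windows were the letters of the CRE (TGACGTCA, 1.79% of windows), the AP-1 site or TRE (TGACTCA, 5.2%), the EGR site (GCGTGGGCG, 0.612%) or the CArG box (1.63%) found. That says only that these letters are not in these windows. No searched motif was found in the window of Jund, which ends before the gene model of the tables begins.

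The libraries held between 17369020 and 18403790 reads on genes, and the 10 most abundant genes took 4.1% to 4.45% of them. Denr mRNA, the targeted transcript, was at 67.0% of control in DENR KO cells with IFNγ (log2 fold change −0.58, adjusted p = 8.2e-06) and at 67.7% untreated (−0.56, adjusted p = 1.1e-04). The epithelial markers Krt8, Krt18, Krt19 and Cdh1 had at most 20.6 normalized counts in any sample, whereas Vim, the mesenchymal filament, had 62697 to 74880.3, so the keratin pattern of colon epithelium was absent from this line. Of the 4 leukocyte markers in the tables, Ptprc, Itgam and Csf1r had at most 4.02, and Cd68, a lysosomal protein that other cells can also express, had 51.3 to 78.6. Fibroblast markers summed to 18904 to 19425 in untreated control, 17452 to 18124 in untreated DENR KO, 17924 to 18168 in control with IFNγ and 16219 to 16680.3 in DENR KO with IFNγ, led by Col1a2 (9429 to 12380.2). The endothelial markers had at most 20.1 in any sample (Cdh5). Which cells the fibroblast markers came from, the MC38 cells themselves included, was not tested, nor was their part in the differences below.

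The levels of the members spanned more than 2 orders of magnitude. Levels between genes are compared here as normalized counts per 1000 bases of the gene model, with the reads of all 8 samples scaled together (the joint scale). In untreated control cells the order was Fosl1 (3595 ± 185, SD, n = 2), Ier3 (2350.4 ± 154), Jun (1891 ± 15.2), Junb (1084 ± 26.2), Myc (988 ± 14.3), Ier2 (634 ± 20.8), Egr1 (250.2 ± 21.1), Jund (46 ± 13.6), Fosb (16.3 ± 3.59) and Fos (7.57 ± 3.06). No 2 neighbours in that order overlapped in their samples. The order was the same in the other 3 groups, except that Jun (2892 ± 48.6) stood above Ier3 (2717 ± 182) in control cells with IFNγ. Per length, Fosl1 thus made up 92.1% to 93.5% of the Fos family (Fos, Fosb, Fosl1 and Fosl2) in every sample, Fosl2 made up 5.92% to 7.51%, and c-Fos and FosB mRNAs together were the small remainder. Fosl1 encodes Fra-1, a Fos protein that lacks the strong activation domain of c-Fos. Among the Jun genes, Jun was the most abundant and Jund held 0.972% to 1.88%. The gene model of Jund in the tables begins after its annotated RefSeq start, and what that does to its level was not tested.

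**Figure D1:**
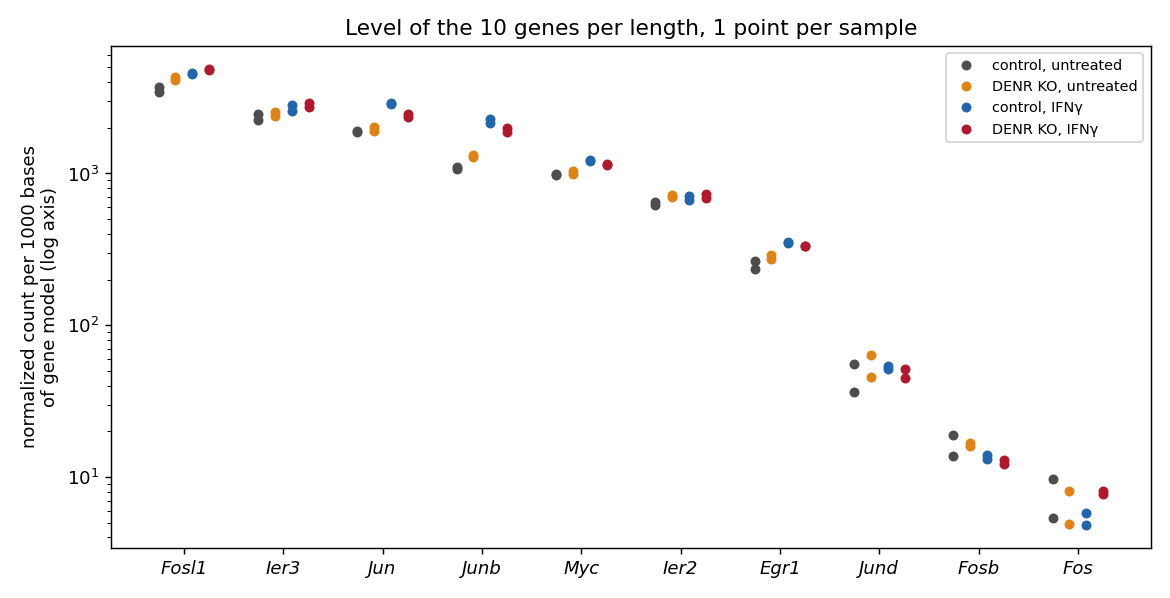
Level of each of the 10 genes per 1000 bases of gene model (vertical log axis, normalized counts on the joint scale) in the 8 samples, 1 point per sample, coloured by group. Fosl1 is highest in every group, and Jund, Fosb and Fos lie far below the other 7.

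With at most 23.5 normalized counts in a sample, Fos was near the limit of what these libraries can compare. It had 13.1 and 23.5 in the untreated control samples, 19.6 and 11.8 in untreated DENR KO, 13.3 and 11.1 in control with IFNγ and 17.7 and 18.6 in DENR KO with IFNγ. The untreated groups overlapped. Its 95% confidence intervals reached from −1.32 to 0.47 on the log2 scale for IFNγ in control cells, and from −0.34 to 1.42 for DENR KO with IFNγ. Both included 0, so neither the direction nor the size of a change was settled here. Fosb (74.8 to 121 normalized counts) and Jund (62.3 to 109) were low as well, and their intervals were also wide.

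The first question was how the 10 genes stood after 4 h of IFNγ. No earlier time was sampled, so a rise that had passed by then would not be seen here. In control cells, 6 of 10 were higher with IFNγ than untreated and none was lower, against 9.12% of 13999 genes called higher and 6.31% called lower (limma, adjusted p under 0.05). That balance over all genes depended on the scaling: 1277 genes were higher and 883 lower here, against 1002 and 1760 with the values as deposited and 1111 and 1222 with every sample centred on its median, whereas 5 members were higher and none lower with either. Junb rose 2.04-fold and Jun 1.53-fold, Egr1 rose 1.40-fold, Fosl1 and Myc rose less, and Ier3 rose least. The 2 treatments were deposited in separately normalized tables. For this comparison the reads were recovered and scaled together, and the values of the next 2 paragraphs are on that joint scale.

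Junb, a Jun protein that can restrain c-Jun and is a known early target of cytokine signals, had 2536 and 2451 normalized counts in untreated control samples and 5262 and 4936 with IFNγ. Both treated samples were far above both untreated ones. The log2 fold change was 1.03 (SE 0.059, adjusted p = 8.2e-13). Jun, which encodes c-Jun, the strongest activator of the family, had 6064 and 5996 untreated and 9331 and 9112 with IFNγ, a log2 fold change of 0.61 (SE 0.053, adjusted p = 2.5e-09). Again the groups were far apart compared with the distance within them. Egr1 had 1055 and 1189 untreated and 1553 and 1585 with IFNγ (log2 fold change 0.49, SE 0.071, adjusted p = 1.4e-05). Fosl1 went from 6359.7 and 5912 to 7734 and 7789.6 (0.34, SE 0.054, adjusted p = 3.8e-05). Myc went from 2712 and 2657 to 3269 and 3348 (0.30, SE 0.058, adjusted p = 4.3e-04). These 5 calls held when the values were compared as deposited. Ier3, a gene induced by stress and NF-κB, had 2535 and 2781 untreated and 2927 and 3218 with IFNγ (0.21, SE 0.065, adjusted p = 0.030), and this call was lost with the values as deposited (adjusted p = 0.18), with edgeR (0.054), with every sample centred on its median (0.088) and without control IFNγ replicate 2 (0.33) or untreated control replicate 1 (0.25). The others did not pass: Ier2 had a log2 fold change of 0.13 (95% CI −0.03 to 0.28), Fosb −0.24 (−0.65 to 0.16) and Jund 0.22 (−0.24 to 0.68).

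**Figure D2:**
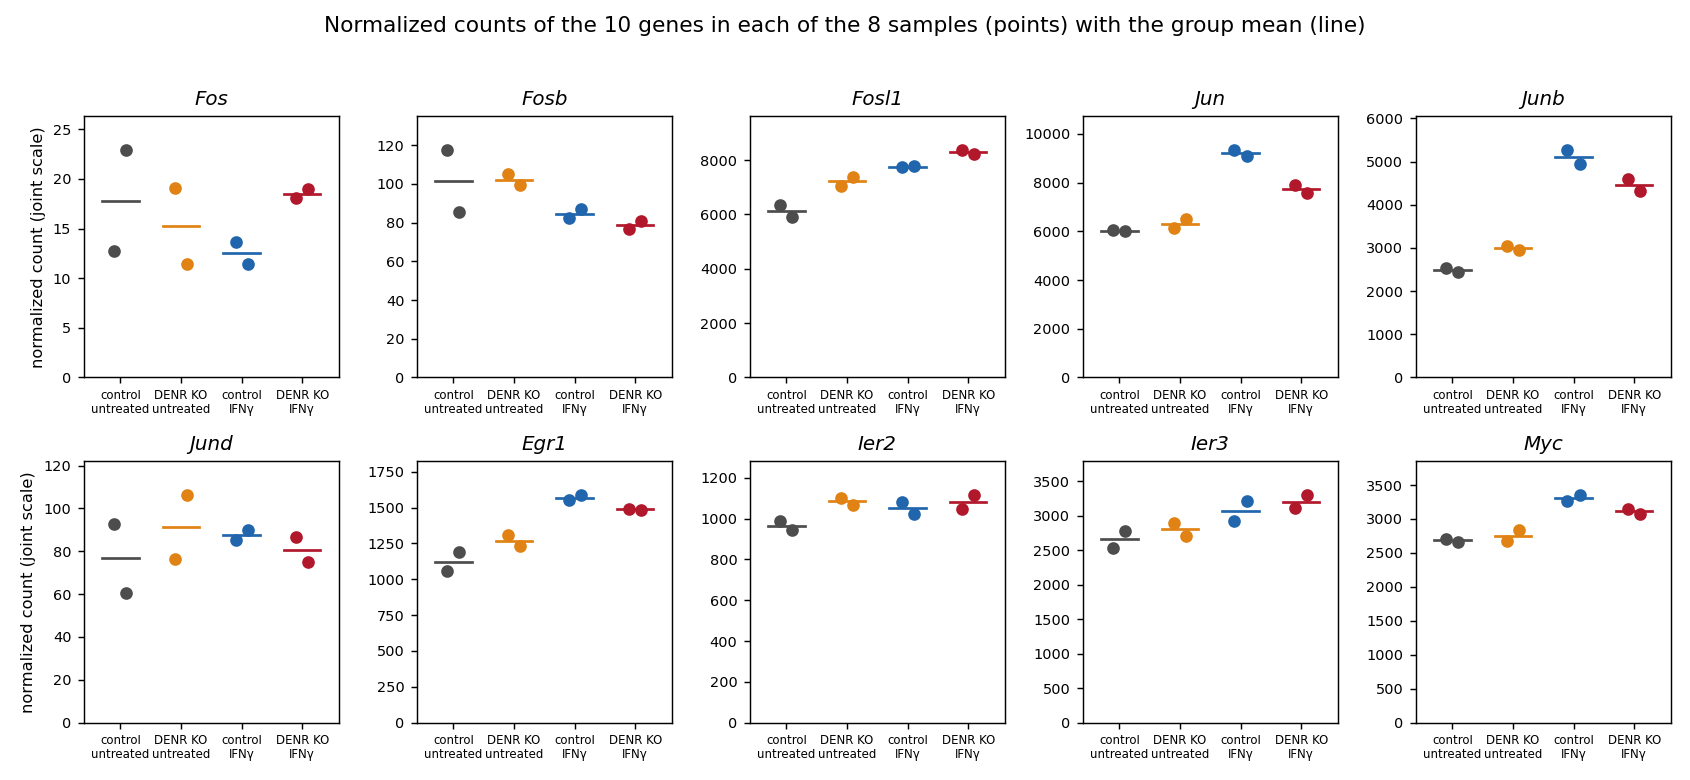
Normalized counts (joint scale, vertical axis from 0) of each of the 10 genes in the 4 groups, with 1 point per sample and a line at the group mean. Junb and Jun separate the treated from the untreated samples in both genotypes, and their treated DENR KO samples lie between the untreated samples and the treated control samples.

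In DENR KO cells, 4 of the 10 genes were higher with IFNγ and none was lower, against 6.89% of 13999 genes called higher and 2.97% called lower. These shares stand for 965 and 416 genes, which became 750 and 955 with the values as deposited and 875 and 496 with centring. Junb had 3037 and 2962 normalized counts untreated and 4599 and 4308 with IFNγ, a log2 fold change of 0.57 (SE 0.059, adjusted p = 7.8e-08). Jun had 6121 and 6497 untreated and 7906 and 7571 with IFNγ (0.29, SE 0.053, adjusted p = 3.1e-04). In both genes the treated and untreated samples were apart, with a narrower gap than in control cells. Fosl1 rose by 0.20 on the log2 scale (adjusted p = 0.015) and Egr1 by 0.23 (adjusted p = 0.040). With the values as deposited neither passed (adjusted p = 0.13 and 0.16), Egr1 was also lost with DESeq2 (0.10) and with centring (0.071) and without any 1 of the 4 DENR KO samples (0.098 to 0.32), and Fosl1 without DENR KO IFNγ replicate 1 (0.11) or 2 (0.073) or untreated DENR KO replicate 1 (0.21). Myc (0.18, 95% CI 0.06 to 0.30, adjusted p = 0.054) and Ier3 (0.19, 95% CI 0.06 to 0.33, adjusted p = 0.068) did not pass.

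Whether DENR KO changed the response was tested on its own, by subtracting the untreated DENR KO effect from the one with IFNγ, which is the same contrast as subtracting the IFNγ response of control cells from that of DENR KO cells. One of the 10 genes, Junb, was called lower, against 0.429% of 13998 genes called lower and 0.0214% called higher. The difference for Junb was −0.46 on the log2 scale (95% CI −0.63 to −0.28, adjusted p = 0.0064). It was also called by edgeR (adjusted p = 0.029) and DESeq2 (2.2e-04), and was lost without DENR KO IFNγ replicate 2 (0.066), control IFNγ replicate 1 (0.052) or untreated DENR KO replicate 1 (0.082). Jun followed with −0.31 (95% CI −0.47 to −0.16, adjusted p = 0.073), which passed with DESeq2 (0.0099) and with no filter on low values (0.049), and not with edgeR (0.13). For Egr1 the difference was −0.25 (−0.46 to −0.04, adjusted p = 0.64) and for Fosl1 −0.13 (−0.29 to 0.02). Junb, Jun and Egr1 were the 3 members with an unadjusted p under 0.05, and the intervals of the other 7, Fos among them (−0.53 to 2.0), included 0.

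For Junb, the difference had a part in each table. Untreated, it was the only one of the 10 genes called, and it was higher in DENR KO cells, against 0.429% of 13998 genes called higher and 0.15% called lower in that comparison. As deposited, it had 2609.8 and 2513 normalized counts in control and 3128 and 3044 in DENR KO, with a log2 fold change of 0.27 (SE 0.062, adjusted p = 0.036). The samples of the groups did not overlap, as was so in this direction for 20.4% of all genes, but the call was lost with edgeR (adjusted p = 0.13), DESeq2 (0.059), centring on the sample median (0.081) and without any 1 of the 4 samples. With IFNγ, Junb had 5119 and 4802 in control and 4499 and 4216 in DENR KO, a log2 fold change of −0.19 (95% CI −0.31 to −0.07, adjusted p = 0.083) that did not pass. The 2 tables thus hold opposite signs for Junb, each close to the threshold, and the difference between them passed.

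With IFNγ, Jun was the only member called between the genotypes, and it was lower in DENR KO cells, against 2.25% of 13928 genes called lower and 1.8% called higher. Jun had 9077 and 8865 normalized counts in control cells and 7735 and 7410.1 in DENR KO cells. The groups did not overlap (20.8% of all genes were lower without overlap), and the log2 fold change was −0.24 (SE 0.052, adjusted p = 0.0056), a fold of 0.844. The call held with edgeR (adjusted p = 0.017) and DESeq2 (7.5e-04) and was lost without DENR KO replicate 2 (0.090). Untreated, Jun had 6241 and 6147 in control and 6303 and 6678 in DENR KO, and the log2 fold change was 0.07 (95% CI −0.05 to 0.19). The untreated groups did not overlap either, with DENR KO on the higher side (as for 20.4% of all genes), and the difference between the tables did not pass, as given above.

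Fosl1, the predominant Fos gene, lay above control in both DENR KO samples of either table without passing the test. Such a lack of overlap in this direction was seen in 20.4% of all genes untreated and 21.1% with IFNγ. Untreated, it had 6545 and 6061 in control and 7276 and 7589 in DENR KO (log2 fold change 0.24, 95% CI 0.12 to 0.36, adjusted p = 0.061). It passed with DESeq2 (0.048), when the untreated samples were fitted together with the treated ones (0.041) and with no filter on low values (0.020). With IFNγ it had 7524 and 7578 in control and 8185 and 8057 in DENR KO (0.10, 95% CI 0.00 to 0.21, adjusted p = 0.39). Egr1 had 1510.3 and 1542 in control and 1461 and 1450.4 in DENR KO with IFNγ (−0.07, 95% CI −0.21 to 0.07), and 1086 and 1219 against 1345 and 1266 untreated (0.18, 0.02 to 0.34, adjusted p = 0.45). Of the remaining members, Ier2, Ier3 and Myc had fitted DENR KO effects between −0.08 and 0.17, all with adjusted p of 0.51 or more.

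**Figure D3:**
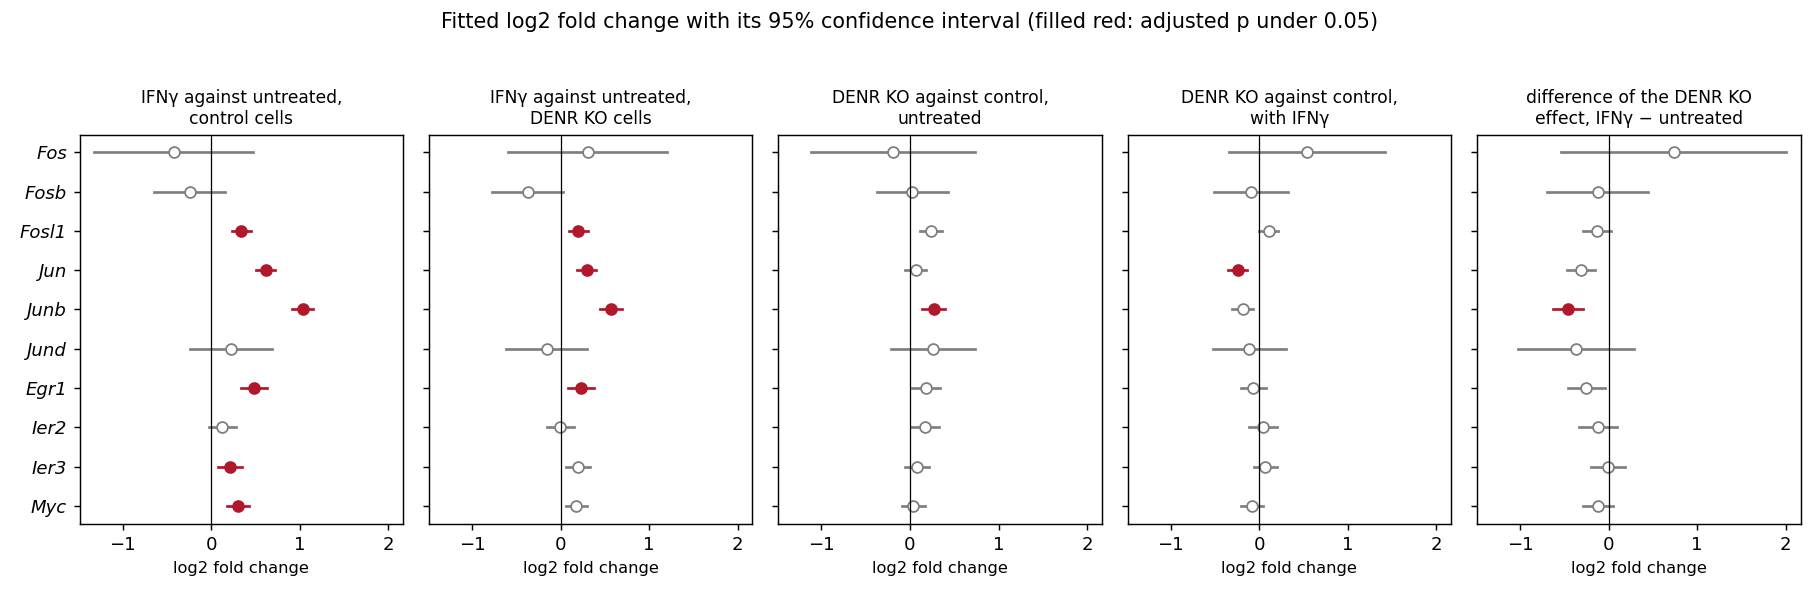
Fitted log2 fold change (point) and 95% confidence interval (line) of each of the 10 genes in the 5 comparisons, filled red where the limma adjusted p was under 0.05. The intervals of Fos, Fosb and Jund are the widest, and Junb is called in 4 of the 5 panels, with opposite signs of its DENR KO effect in the third panel and the next one.

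Within the Jun family, the treatment moved the balance as well as the amount. Per 1000 bases on the joint scale, Jun, Junb and Jund summed to 2982 to 3059.5 in untreated control samples, 3285 to 3388 in untreated DENR KO, 5057 to 5264 in control with IFNγ and 4291 to 4529.6 in DENR KO with IFNγ. The treated DENR KO samples were below both treated control samples, while the untreated ones were above. Junb made up 35.7% to 36.0% of that sum in untreated control and 42.4% to 43.4% with IFNγ, and 38.0% to 40.2% and 43.6% to 44.1% in DENR KO. The summed Fos family per length, which is nearly all Fosl1, was 3750 to 4031 in untreated control, 4426 to 4648 in untreated DENR KO, 4914 to 4919.6 in control with IFNγ and 5159.8 to 5266 in DENR KO with IFNγ. These sums are given as a description, since Jun and Junb had their own tests above.

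Both Jun and Junb overlap a gene on the other strand, and how strand was handled in counting is not given in the sources used here. Jun shares 689 bases with Junos, which had 879 to 984 normalized counts, and Junb shares 351 bases with Prdx2, which had 4004 to 4394. Neither neighbour was called in any of the 5 comparisons. Prdx2 had a log2 fold change of 0.14 with IFNγ in control cells, where Junb had 1.03. What the overlaps add to the counts of Jun and Junb was not tested.

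Genes that pair with AP-1 subunits were mostly higher with IFNγ too. Of 12 other AP-1 and basic leucine zipper partners, 11 could be tested. In control cells 8 were higher and none lower with IFNγ (median log2 fold change 0.48, against 0.00 for all genes), and in DENR KO cells 7 and none (0.29). Of all genes, 9.12% were called higher and 6.31% lower in control cells, and 6.89% and 2.97% in DENR KO cells. Batf2, a partner of c-Jun that is induced by interferons, had 72.4 and 64.3 normalized counts in untreated control, 70.6 and 76.6 in untreated DENR KO, 2609.8 and 2558 in control with IFNγ and 1497 and 1298 in DENR KO with IFNγ, as deposited. Its log2 fold change with IFNγ was 5.30 in control and 4.30 in DENR KO cells, and its DENR KO effect with IFNγ was −0.89 (SE 0.071, adjusted p = 9.5e-09). Between the treatments, that effect differed by −0.997 (SE 0.15, adjusted p = 7.5e-04). Atf3, a stress-induced partner of Jun proteins, was lower in DENR KO cells with IFNγ as well (345 and 397 against 259 and 229.5, log2 fold change −0.60, adjusted p = 0.0026), having risen with IFNγ by 1.18 in control and 0.78 in DENR KO cells. Maff, a small Maf protein, rose by 0.62 and 0.49. Untreated, none of 10 tested partners was called between the genotypes (0.429% of all genes were called higher and 0.15% lower). With IFNγ 2 of 11 were, Batf2 and Atf3, both lower, against 2.25% of all genes called lower and 1.8% called higher.

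The other immediate early genes did not move as one. Of 31 tested, 8 were higher and 7 lower with IFNγ in control cells, and 6 higher and 7 lower in DENR KO cells, with medians of 0.07 and 0.03. Over all genes, 9.12% were called higher and 6.31% lower in control cells and 6.89% and 2.97% in DENR KO cells. Zfp36, which encodes the decay factor tristetraprolin, rose by 1.71 in control and 1.201 in DENR KO cells, and was lower in DENR KO than in control cells with IFNγ (447 and 453 against 683 and 650.4, log2 fold change −0.57, adjusted p = 2.8e-04). Ier5, a relative of Ier2, rose by 1.02 and 0.78, and Gadd45b, a stress sensor, by 1.08 and 0.69. Btg1, an antiproliferative factor, rose by 0.71 and 0.35. The naming rule given below picked only rises here. Outside that rule, Ctgf had the largest fall of the list (−1.46 in control and −1.09 in DENR KO cells, called in both). Ier5l was higher in DENR KO cells with IFNγ (0.36, adjusted p = 0.015), a call lost with DESeq2 (0.12) and without DENR KO IFNγ replicate 1 (0.092) or control IFNγ replicate 1 (0.14). Of all genes, 1.8% were called higher and 2.25% lower between the genotypes with IFNγ. No gene of this list was called between the genotypes untreated or in the difference of the DENR KO effects. Of all genes, 0.429% were called higher and 0.15% lower untreated, and 0.0214% and 0.429% in the difference.

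**Figure D4:**
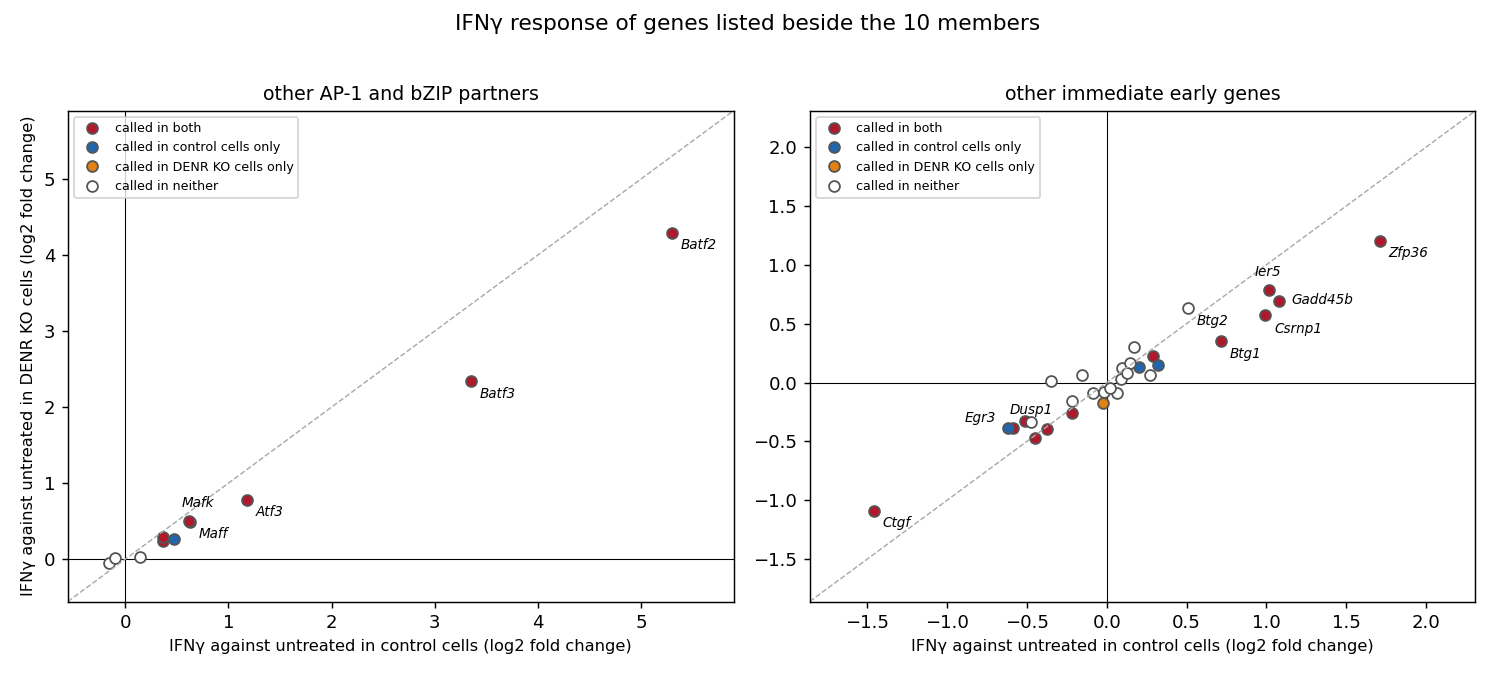
Fitted log2 fold change with IFNγ in control cells (horizontal axis) and in DENR KO cells (vertical axis) of the 11 tested AP-1 and basic leucine zipper partners (left) and the 31 other immediate early genes (right), coloured by where the gene was called, with a dashed line of equal change. Batf2 lies at 5.30 and 4.30 and Zfp36 at 1.71 and 1.201, both below the line, and the genes called lower with IFNγ are all in the right panel.

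Upstream of these genes, 26 kinases and factors were tested, and 3 were higher and 4 lower with IFNγ in control cells (9.12% and 6.31% of all genes). In DENR KO cells 2 were higher and 1 lower (6.89% and 2.97% of all genes). Map2k1, the ERK kinase MEK1, rose by 0.36 in control and 0.21 in DENR KO cells, and Nras, a RAS protein, by 0.19 and 0.18. Mkl1, a coactivator of serum response factor, fell by 0.24 and 0.26, while Elk3 and Elk1, ETS factors that work with serum response factor, fell by 0.41 and 0.34 in control cells, with values of −0.19 and −0.12 in DENR KO cells that did not pass. Elk3 passed there with the values as deposited (adjusted p = 0.0076) and with centring (0.044). The 12 tested feedback genes of the ERK pathway had 2 higher and 5 lower in control cells and 1 higher and 4 lower in DENR KO cells. Dusp6, an ERK phosphatase, rose by 0.84 and 0.50, Dusp4, another phosphatase, fell by 0.49 and 0.33, and the ETS factor Etv5 fell by 0.28 and 0.32. Phlda1 rose by 0.47 in control cells and had a value of 0.23 in DENR KO cells that did not pass. Between the genotypes with IFNγ, 1.8% of all genes were called higher and 2.25% lower. Mkl2 (0.33, adjusted p = 0.018) was the only called gene of the upstream list, and Dusp4 (0.37, adjusted p = 0.0040) the only one of the feedback list. Both were higher in DENR KO cells. Without DENR KO IFNγ replicate 1 both were lost (0.13 and 0.12), and Mkl2 also with DESeq2 (0.13) and without control IFNγ replicate 1 (0.10). In control cells, Elk1, Mkl1, Nras and Etv5 were each lost without at least 1 control sample (adjusted p up to 0.17), Elk1 (0.093) and Mkl1 (0.052) also with DESeq2, and Nras with the values as deposited (0.20) and with centring (0.091). Each call named in DENR KO cells except Dusp6 was lost without at least 1 DENR KO sample (adjusted p up to 0.30). Untreated and in the difference, neither list had a called gene. Few of all genes were called there: 0.429% higher and 0.15% lower untreated, and 0.0214% higher and 0.429% lower in the difference.

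Genes known as AP-1 targets in other systems were next. Of 19 tested, 4 were higher and none lower in DENR KO cells with IFNγ (median log2 fold change 0.06 against 0.00 for all genes, of which 1.8% were called higher), and 2 and none untreated (0.429% of all genes). Mmp9, a matrix metalloproteinase, had 398 and 370.5 in control and 563 and 571 in DENR KO untreated (0.56, adjusted p = 0.0031), and 414 and 438 against 638 and 586 with IFNγ (0.52, adjusted p = 0.0011). Mmp14, its membrane-bound relative, was higher with IFNγ (0.35, adjusted p = 4.0e-04). Vegfa, an angiogenic factor, was higher in DENR KO cells in both tables (0.27, adjusted p = 0.021, untreated and 0.33, adjusted p = 0.0013, with IFNγ), and the untreated call was lost with edgeR (0.0995), with centring (0.051) and without any 1 of the 4 samples. The untreated call of Mmp9 was lost without control replicate 2 (0.10). With IFNγ, 5 of the 19 were higher and 1 lower in control cells, and 4 and none in DENR KO cells, beside 9.12% and 6.31%, and 6.89% and 2.97%, of all genes. Lif, a cytokine, rose by 1.74 and 1.47, Ets1 by 0.36 and 0.33, Hbegf, an EGF receptor ligand, by 0.34 and 0.27, and the cyclin gene Ccnd1 by 0.21 and 0.31. Hbegf in DENR KO cells was lost with DESeq2 (0.065), with the values as deposited (0.088) and without 3 of the 4 samples (0.068 to 0.22), and Ccnd1 in control cells with the values as deposited (0.076) and without control IFNγ replicate 2 (0.075) or untreated control replicate 1 (0.089). No target was called in the difference of the DENR KO effects (0.0214% of all genes were called higher there and 0.429% lower).

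Around Myc, Mxd4 had the largest of the called changes. Of 10 tested partners and antagonists, Max rose with IFNγ by 0.28 in control and 0.26 in DENR KO cells, the antagonist Mxd4 fell by 0.61 and 0.38, and Mlxip rose by 0.24 in DENR KO cells, with a value of 0.17 in control cells that did not pass. Of 23 MYC target genes, 4 in control and 6 in DENR KO cells were higher with IFNγ and none was lower (medians 0.12 and 0.12, against 0.00 and −0.01 for all genes, of which 9.12% and 6.89% were called higher). Among them Rrs1 rose by 0.36 and 0.20, Ddx21 by 0.30 and 0.27 and Tfrc, the transferrin receptor, by 0.25 and 0.31. The spermidine synthase gene Srm rose by 0.26 in control cells (0.18 in DENR KO cells, not called), and Polr1b by 0.24 in DENR KO cells (0.16 in control cells, not called). Of these calls, Max in control cells was lost with DESeq2 (adjusted p = 0.074), with the values as deposited (0.092) and without control IFNγ replicate 1 (0.10) or 2 (0.064) or untreated control replicate 2 (0.33). Srm was lost without untreated control replicate 2 (0.077), Tfrc in control cells with the values as deposited (0.068) and without control IFNγ replicate 2 (0.069) or untreated control replicate 1 (0.10), and all 7 calls named in DENR KO cells were lost without at least 1 DENR KO sample (adjusted p up to 0.31). No gene of either list was called between the genotypes in the 2 tables or in the difference. Of all genes, 1.8% were called higher and 2.25% lower with IFNγ, 0.429% and 0.15% untreated, and 0.0214% and 0.429% in the difference.

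Finally, for each of the 6 members called in a comparison, the genes with the most similar profile over the 8 samples were sought among 10324 others with a mean of at least 100, by Pearson's r of the log2 values. Because the samples fall into 4 groups, r mostly reflects the group means, and it is given as a description. For Junb the 3 highest were B4galt5 (0.996), H2-T23 (0.996) and Sdc4 (0.995), and for Jun they were Pgs1 (0.997), Furin (0.994) and Pnp (0.993). Fosl1 was closest to Trib1 (0.993), App (0.988) and H2-DMb1 (0.988), and Egr1 to Etv6 (0.986), Acta2 (0.977) and N4bp3 (0.974). Ier3 was closest to Tpm4 (0.981), Prkar2b (0.972) and Gjc1 (0.966), and Myc to Jcad (0.990), Stc2 (0.990) and Utp15 (0.989).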

How the data were processed

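RNA from 8 MC38 samples in 4 groups of 2 was sequenced as poly-A selected paired ends. Per the labels, the authors used HISAT2 (2.0.5), StringTie (1.3.3b), featureCounts (1.5.0-p3) and DESeq2 (1.20.0), and name mm9, whereas the deposited coordinates are those of GRCm38. The authors deposited 1 table per treatment with a normalized signal per sample, the read count divided by 1 size factor, called a normalized count here. Columns of group means and of the authors' own fold changes and p-values were not used. Of the values of each sample, 100% were whole multiples (tolerance 0.01) of what 1 read is worth, so reads were recovered. The size factors were 0.976 to 1.02. Genes at low counts are limited by counting error.

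The 4 samples of a table were compared with limma (3.58.1, R 4.3.3; trend and robust) on log2(value + 1), for genes with a mean of at least 10, with Benjamini-Hochberg adjustment over all genes, and a gene was called at an adjusted p under 0.05 with no fold threshold. Fold changes on this scale are understated for low counts. The difference of the DENR KO effects was fitted over all 8 samples and the genes of both tables. For IFNγ against untreated, recovered reads were scaled together by median-of-ratios factors, which moved the treated over the untreated level by 0.08 (control) and 0.07 (DENR KO) on the log2 scale relative to the deposited values. edgeR (4.0.16) and DESeq2 (1.42.0) on recovered reads, other pseudocounts, filters and scalings, a replicate block and leaving out each sample were the alternatives. The basic limma, edgeR and DESeq2 fits were tested on simulated data first.

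The members, the 7 gene lists and the tests were chosen with earlier results of these data known. Named were all members, Denr, up to 3 called genes with the smallest adjusted p per list and comparison, and the 3 genes with the profile nearest to each called member. Names that the tables do not hold were left out of a list.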

Additional observations from a re-analysis of the deposited data

Results flagged for a closer look

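The DENR KO effect of Junb differed between the treatments by −0.46 on the log2 scale (−0.19 with IFNγ and 0.27 untreated), by the test of the difference itself over all 8 samples. Over the alternatives this difference ran from −0.50 to −0.41, and the adjusted p from 4.4e-05 to 0.082. Both treated DENR KO samples were below both treated control samples, and both untreated DENR KO samples were above both untreated control samples, as was so for 20.8% and 20.4% of all genes in these directions.

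The DENR KO effect of Batf2 also differed between the treatments, by −0.997 (−0.89 with IFNγ). Untreated, all 4 samples had between 64.3 and 76.6 normalized counts, and with IFNγ they had between 1298 and 2609.8.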

How the results depend on the processing

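Fos, Fosb and Jund had the fewest reads and the widest intervals, and every group had 2 samples. The counts of genes called were 565 (DENR KO with IFNγ), 81 (DENR KO untreated), 63 (difference), 2160 (IFNγ, control) and 1381 (IFNγ, DENR KO). With IFNγ, the DENR KO count was 352 with DESeq2. Untreated, it was 32 with edgeR and 52 with DESeq2. Also requiring a log2 fold change beyond 0.5 left 215 genes and 0 members with IFNγ, 30 and 0 untreated, 0 members in the difference, 1022 and 2 in control cells and 635 and 1 in DENR KO cells. With 1 sample left out, the ranges were 0 to 1 members with IFNγ, 32 to 91 genes and 0 members untreated, 36 to 93 genes and 0 to 1 members in the difference, and 824 to 1524 genes and 2 to 6 members for IFNγ in DENR KO cells. A lone sample left in a group was assumed to vary like the others.

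Members called untreated were 0 with edgeR and with centring, 1 (Fosl1) with DESeq2, and 2 with no filter on low values and in the fit over all 8 samples. In the difference they were 2 with DESeq2 and with no filter, and with the values as deposited 2 members were called for IFNγ in DENR KO cells. The causes were not tested.

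Of 802 refits of the members, 730 kept direction and call. That is no plain measure of stability, since most of the member tests were not called to begin with. The fold threshold could not turn a direction. Leaving out a sample of either genotype could not move the IFNγ fold change of the other. Signs turned only in members that were not called: Ier3 in the difference with centring (0.0037), Ier2 for IFNγ in DENR KO cells with edgeR (0.0011), and others with 1 sample left out. The latter ranges were −0.0014 to 0.14 for Ier3 with IFNγ; untreated −0.59 to 0.21 (Fos), −0.20 to 0.26 (Fosb), −0.046 to 0.56 (Jund) and −0.00024 to 0.078 (Myc); in the difference −0.35 to 0.10 (Fosb) and −0.079 to 0.058 (Ier3); for IFNγ −0.083 to 0.52 (Jund, control), and −0.038 to 0.65 (Fos), −0.048 to 0.039 (Ier2) and −0.39 to 0.077 (Jund) in DENR KO cells.

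The labels number the samples 1 and 2 in every group, and nothing says that a number marks a shared culture or day. Deviations of same-numbered samples correlated at 0.223 and 0.0472 between genotypes (with IFNγ and untreated) and at 0.228 and 0.024 between treatments (control and DENR KO), so pairing was not shown. With the number as a replicate block, the counts were 1455 genes and 3 members with IFNγ (Jun, Junb and Fosl1), 257 and 2 untreated (Junb and Fosl1), and 150 and 2 in the difference (Junb and Jun), and Ier3 and Myc were called in addition for IFNγ in DENR KO cells.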
